A study of Homo sapiens with 6 samples.

Results

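The MYC and MAX network was followed through 10 genes, chosen by name: the activators MYC and MYCN, their shared partner MAX, the repressors MXD1, MXD3, MXD4, MXI1 and MNT, the parallel partner MLX, and MGA. All 10 were among the 23228 genes listed in each count table, and 9 of the 10 passed the filter on low counts that left 13408 genes for testing. MYCN did not pass it. The libraries were made from HEC-1-A, a single established line of human endometrial adenocarcinoma cells. The 3 control libraries came from cells given vehicle, and the 3 SMIP34 libraries from cells given 20 µM SMIP34 for 24 h. SMIP34 is a small molecule that binds and inhibits PELP1, a scaffold protein of nuclear receptor signaling and of the Rix1 complex of ribosome assembly. The comparison asks how the mRNA of this network stood after PELP1 inhibition. No label says that the libraries of a group came from separate cultures, so p-values measure the spread between these libraries, which may be technical.

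MYC is a basic helix-loop-helix leucine zipper factor that binds DNA as a heterodimer with MAX at the E-box CACGTG and recruits histone acetyltransferases. The MXD proteins, MXI1 and MNT compete for MAX, bind the same E-boxes and recruit SIN3 and histone deacetylases, so that activation and repression meet at shared sites. MLX forms a parallel arm with the glucose-sensing Mondo proteins and also pairs with MXD1, MXD4 and MNT. MGA, a MAX partner that also carries a T-box domain, sits in a Polycomb complex. In tumors MYC is a driver of growth and of ribosome production.

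Library totals ran from 19562711 to 22014835 estimated counts. All 11 epithelial markers were expressed, summing to 6181 to 6389 CPM (counts scaled to a common library size) in control and 6110 to 6224 CPM in SMIP34 libraries. Markers of stromal, immune and endothelial cells summed to at most 6.7, 3.05 and 0.876 CPM in any library, and the stromal marker LUM and the T cell marker CD3E were at 0 throughout. PELP1 mRNA, the message of the inhibited protein, was 133, 146 and 138 CPM in control and 158, 159 and 151 CPM in SMIP34 libraries (log2 fold change 0.16, SE 0.035, adjusted p = 0.000746). The study reports from Western blots that SMIP34 lowers PELP1 protein, the opposite direction, and protein was not measured in these libraries.

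Because the E-box is the site that MYC and its antagonists share, the promoters of the members were searched for it. RefSeq promoters (build GRCh38.p14, 250 bases before to 50 bases after a start) were found for 9 of the 10 members. The word CACGTG, which reads the same on both strands, occurred in 3 of these 9 (MXD4, MNT and MLX) and in the promoters of 12.6% of the 10356 tested genes in the table (77.2% of those tested). Counted by promoter, it was in 7.26% of all 35116. The 60-base stretch around each word is shown 5′ to 3′ on the strand of the gene, with the E-box in capitals, for these 3 members and for the targets SLC7A5, SRM and HK2 described further on. The MXD4 stretch lies at chr4:2262300-2262359 (minus strand), MNT at chr17:2401221-2401280 (minus) and MLX at chr17:42567023-42567082 (plus). SLC7A5 lies at chr16:87869605-87869664 (minus), SRM at chr1:11060185-11060244 (minus) and the E-box of HK2 nearer its start at chr2:74834994-74835053 (plus).
MXD4: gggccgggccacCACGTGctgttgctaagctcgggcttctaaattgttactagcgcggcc
MNT: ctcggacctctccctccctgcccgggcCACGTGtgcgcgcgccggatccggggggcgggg
MLX: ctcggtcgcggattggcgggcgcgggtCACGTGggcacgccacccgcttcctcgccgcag
SLC7A5: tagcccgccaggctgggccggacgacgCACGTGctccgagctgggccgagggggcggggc
SRM: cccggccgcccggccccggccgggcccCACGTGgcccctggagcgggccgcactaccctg
HK2: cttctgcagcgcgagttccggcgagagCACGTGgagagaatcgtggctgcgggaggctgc
The first base of the word stood 238 bases before the start in MXD4, 193 in MNT and 50 in MLX. A match describes the letters in this window and is no measure of binding.

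MYC was the most abundant member and was level between the groups. MXD1 rose, MXD4 fell, and the other 7 tested members were not called. A gene was called when the quasi-likelihood test of edgeR gave it a p below 0.05 after Benjamini-Hochberg adjustment over all 13408 genes. By this rule 34.6% of all tested genes were called, against 2 of the 9 tested members (22.2%). The higher call, MXD1, stood against 17.4% of all genes called higher, and the lower call, MXD4, against 17.2% called lower. No member was called with an absolute log2 fold change over 0.5, a limit that 3.31% of all genes passed. The values of control and SMIP34 libraries did not overlap for 6 of the 9 tested members, against 44.5% of all genes. The median absolute log2 fold change was 0.068 over the tested members and 0.12 over all genes.

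**Figure D1:**
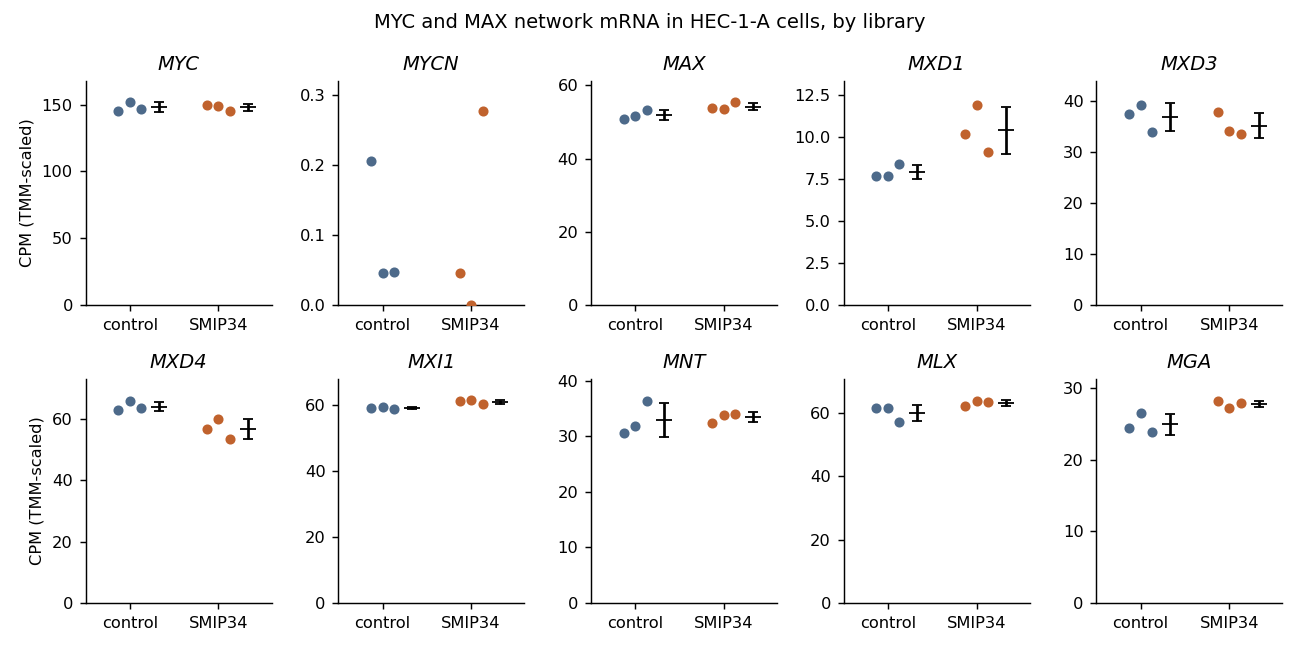
Each panel plots one member in CPM (TMM-scaled, linear axis from 0, own scale) for the 3 control (blue) and 3 SMIP34 (orange) libraries, with the mean and SD in black except for MYCN, whose counts were at most 6. MYC stayed between 145 and 152 CPM in all 6 libraries, while MXD1 was higher and MXD4 lower in every SMIP34 library than in any control library.

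Gene positions are given in hg19, the build of the count tables, and each count is summed over the exons of the gene. MYC (chromosome 8, 128748315 to 128753680, plus strand), the proto-oncogene at the head of the network, stood at 145, 152 and 147 CPM in control and at 150, 149 and 145 CPM in SMIP34 libraries. The groups overlapped fully, with means of 148 ± 3.69 and 148 ± 2.42 CPM (SD, n = 3 each). The log2 fold change was 0.00048 (SE 0.032, adjusted p = 0.992), and its 95% interval ran from −0.065 to 0.066, or from 0.956-fold to 1.05-fold. At 2807 to 3300.5 estimated counts in each library, this was the narrowest interval of the 9 tested members. In bulk RNA, fewer cells that express a gene and less of its RNA per cell cannot be told apart.

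MYCN (chromosome 2, 16080683 to 16087129, plus strand), the paralog known from neuroblastoma and fetal tissue, had 4, 1 and 1 counts in control and 1, 0 and 6 counts in SMIP34 libraries. A floor of 3 counts corresponds to 0.137 to 0.155 CPM in these libraries, and counts of this size allow no comparison. MYCL, the other MYC paralog (MYCL1 in the files), was expressed at 3.76 ± 0.426 CPM in control and 4.02 ± 0.27 CPM in SMIP34 libraries (log2 fold change 0.095, adjusted p = 0.675). At these levels MYC made up nearly all of the activator mRNA measured.

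MAX (chromosome 14, 65472892 to 65569227, minus strand), the partner that every arm but MLX requires, was measured at 50.8, 51.6 and 53.3 CPM in control and 53.8, 53.5 and 55.4 CPM in SMIP34 libraries. All SMIP34 libraries lay above all control libraries, by as little as the step from 53.3 to 53.5 CPM. The log2 fold change of 0.064 (SE 0.043, 95% interval −0.025 to 0.15) did not pass the test (adjusted p = 0.269).

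Among the repressors, MXD1 (chromosome 2, 70142173 to 70170076, plus strand) encodes MAD1, an antagonist of MYC that accumulates as many cell types differentiate. It was the least abundant of the repressors, with 7.68, 7.68 and 8.37 CPM in control and 10.2, 11.9 and 9.11 CPM in SMIP34 libraries. Every SMIP34 library was above every control library, and SMIP34 replicate 2 was the highest. MXD1 rose by 0.40 on the log2 scale (SE 0.11, 95% interval 0.17 to 0.62), or 1.32-fold (adjusted p = 0.00562). Without SMIP34 replicate 2 the log2 fold change was 0.29 with adjusted p = 0.0654, so the call rests on that library. The counts behind it were 149 to 258 per library.

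MXD4 (chromosome 4, 2249160 to 2263739, minus strand), a repressor of the same family, moved the other way. Its levels were 62.8, 65.8 and 63.4 CPM in control and 56.6, 60.1 and 53.4 CPM in SMIP34 libraries. No SMIP34 library reached the lowest control library. The log2 fold change was −0.18 (SE 0.045, 95% interval −0.27 to −0.083), 0.886-fold, with adjusted p = 0.0034. MXD4 was called in 17 of 17 fits with other settings or a library left out, at −0.22 to −0.13. The MXD4 promoter holds the E-box printed above, and that of MXD1 does not. Those of MNT and MLX, which were not called, hold it too, and a link of the E-box to these changes was not tested.

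MXI1 (chromosome 10, 111967363 to 112047123, plus strand), also known as MXD2, was 59.3, 59.4 and 58.9 CPM in control and 61.3, 61.6 and 60.3 CPM in SMIP34 libraries. The groups did not overlap, but the log2 fold change was small at 0.044 (95% interval −0.038 to 0.13, adjusted p = 0.426). MXD3 (chromosome 5, 176732501 to 176739292, minus strand), the family member tied to dividing cells, was 37.4, 39.3 and 34.0 CPM in control and 37.9, 34.2 and 33.5 CPM in SMIP34 libraries. The groups of MXD3 overlapped (log2 fold change −0.068, 95% interval −0.19 to 0.053, adjusted p = 0.4). MNT (chromosome 17, 2287354 to 2304258, minus strand), the broadly expressed MAX-bound antagonist, was 30.6, 31.8 and 36.4 CPM in control and 32.4, 33.9 and 34.1 CPM in SMIP34 libraries. Its groups overlapped as well, control replicate 3 being the highest of the 6 (log2 fold change 0.023, 95% interval −0.10 to 0.15, adjusted p = 0.807). The sign of the MNT value changed with the scaling, to −0.0087 with offsets for exon length.

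**Figure D2:**
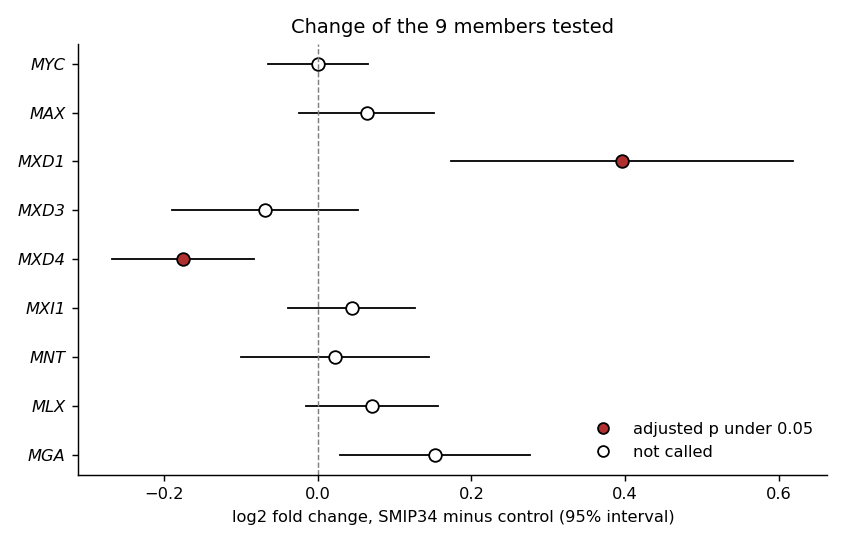
Points give the log2 fold change of the 9 tested members, SMIP34 minus control, with 95% intervals as lines; filled points were called at an adjusted p under 0.05. Only the intervals of MXD1, MXD4 and MGA leave out 0, and MGA missed the adjusted threshold at 0.0507.

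MLX (chromosome 17, 40719078 to 40725221, plus strand), the partner of the Mondo proteins, stood at 61.7, 61.7 and 57.3 CPM in control and 62.2, 63.9 and 63.6 CPM in SMIP34 libraries. The groups did not overlap, and the log2 fold change of 0.071 (SE 0.042, 95% interval −0.016 to 0.16) was not called (adjusted p = 0.204). Its partners were not called either. MLXIP, which encodes MondoA, was 45.6 ± 1.83 CPM in control and 45.5 ± 1.53 CPM in SMIP34 libraries (log2 fold change −0.0025, adjusted p = 0.974). MLXIPL, which encodes the carbohydrate response factor ChREBP, was 6.94 ± 0.94 and 7.88 ± 0.128 CPM (log2 fold change 0.18, adjusted p = 0.231).

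MGA (chromosome 15, 41952610 to 42062141, plus strand) was 24.4, 26.6 and 23.9 CPM in control and 28.2, 27.3 and 27.9 CPM in SMIP34 libraries. All SMIP34 libraries were above all control libraries. The log2 fold change was 0.15 (SE 0.060, 95% interval 0.029 to 0.28) with an adjusted p of 0.0507, at the edge of the threshold, and it passed in 4 of 17 fits. One of these was the fit without control replicate 2, at 0.20 with adjusted p = 0.0223. The exons of MGA span 12042 bases, more than any other member. When the tested genes were split into 10 groups by exon length, the median log2 fold change moved from −0.10 in the group of the shortest genes to 0.12 in the group of the longest, which holds MGA. With offsets for exon length the value for MGA was 0.021 (adjusted p = 0.827). With the same offsets MXD1 stayed at 0.35 (adjusted p = 0.0114) and MXD4 at −0.19 (adjusted p = 0.000919).

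Levels were compared between members as CPM per kilobase of exon. In control libraries MYC led at 62.4 ± 1.56 (SD, n = 3) and lay above 89.1% of tested genes. MLX followed at 23.5, MAX at 18.0, MXD4 at 17.0, MXI1 at 15.4, MXD3 at 11.7, MNT at 6.8, MGA at 2.07 and MXD1 at 1.41 CPM per kilobase. No neighbors in this order overlapped across the control libraries. In SMIP34 libraries MXI1 (15.9 ± 0.179) stood ahead of MXD4 (15.0 ± 0.891), but their values overlapped, and the rest of the order was kept.

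Activators were then set against the MXD and MNT repressors within each library. The summed level of MYC and MYCN was 1.19, 1.2 and 1.19 times that of the 5 repressors in control and 1.23, 1.21 and 1.25 times in SMIP34 libraries. On the log2 scale the ratio averaged 0.26 in control and 0.30 in SMIP34 libraries, a difference of 0.041 beside a pooled SD of 0.018. The groups did not overlap, though the gap was narrow, from 0.269 to 0.276. As a sum over chosen members it was given no test. Leaving MXD4 out of the repressors turned the difference to −0.019.

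**Figure D3:**
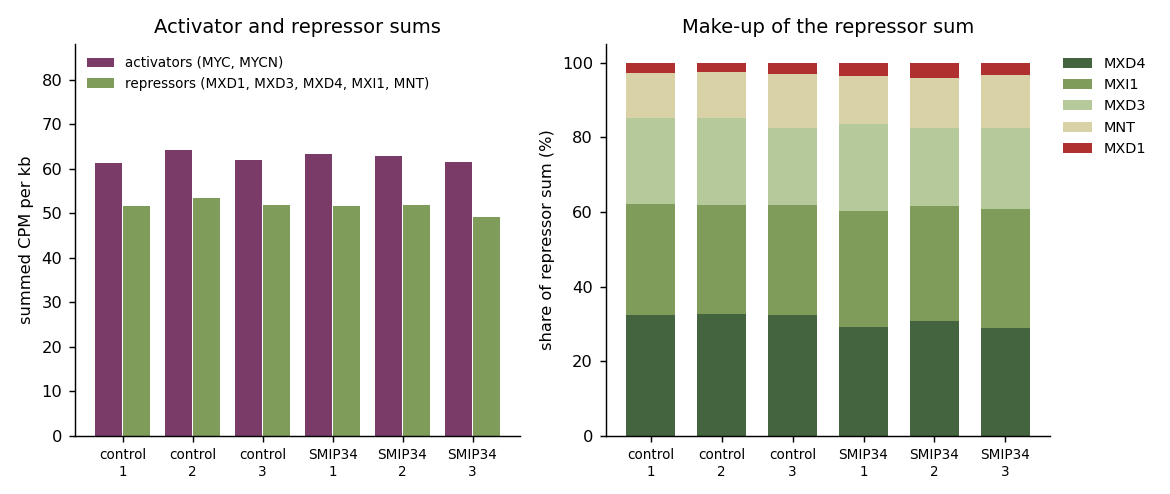
Left, summed CPM per kilobase of the activators (purple) and of the 5 repressors (green) in each library; right, the percent of the repressor sum that each repressor held. MYC dominated the activator sum at 61.2 to 64.2 CPM per kilobase, and within the repressors the MXD4 band shrank while the thin MXD1 band widened in SMIP34 libraries.

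The repressor sum overlapped between the groups, as did the shares of MXD3 and MNT in it, while the shares of MXD4, MXD1 and MXI1 did not. The sum was 52.3 ± 0.867 CPM per kilobase in control and 50.9 ± 1.51 in SMIP34 libraries. MXD4 held 32.3 to 32.7% of it in control and 28.8 to 30.7% in SMIP34 libraries. MXD1 held 2.57 to 2.87% in control and 3.3 to 4.09% in SMIP34 libraries. MXI1 held 29.1 to 29.9% in control and 30.9 to 32.0% in SMIP34 libraries, also without overlap. MXD3 held 20.7 to 23.3% and 20.8 to 23.3%, and MNT 12.2 to 14.5% and 13 to 14.3%. The ratio of MXD1 to MXD4 was 0.0821, 0.0785 and 0.0888 in control and 0.121, 0.133 and 0.115 in SMIP34 libraries, with no overlap. MYC per MAX overlapped between the groups, at 3.35 to 3.58 and 3.19 to 3.38.

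The mRNA of the proteins that the network recruits was examined through lists chosen for their known roles. These lists, and those of targets below, were chosen with earlier results of these data known. Their shares beside all genes are therefore descriptions and no test. From each list the largest called increase and decrease were taken, and any further gene is named as chosen after its values were seen. Of 17 cofactors of MYC activation, 8 rose (47.1%, beside 17.4% of all genes), 3 fell (17.6%, beside 17.2%) and 6 were not called. The median log2 fold change was 0.049, beside −0.0022 over all genes, and the counts were 7 and 2 with offsets for exon length. The histone acetyltransferase EP300 rose by 0.38 on the log2 scale (SE 0.042, adjusted p = 9.84e-08), and KAT5 (TIP60), another acetyltransferase, fell by 0.27 (SE 0.049, adjusted p = 0.000141). TRRAP, the scaffold that brings acetyltransferases to MYC, was 70.3 CPM in control and 81.2 CPM in SMIP34 libraries (log2 fold change 0.21, adjusted p = 0.000239). It was named after its values were seen, and its call was lost with offsets for exon length (0.073, adjusted p = 0.143).

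Of 15 co-repressor genes, 7 rose (46.7%, beside 17.4% of all genes), 1 fell (6.67%, beside 17.2%) and 7 were not called (median 0.12). With offsets for exon length the counts were 5 and 3. ARID4B, a subunit of the SIN3 complex, rose by 0.38 (SE 0.043, adjusted p = 1.18e-07). HDAC1, its deacetylase, changed by −0.071 (adjusted p = 0.0424), a call kept in 6 of 17 fits. Named after their values were seen, SIN3A and SAP30 of the same complex had log2 fold changes of 0.18 and 0.29.

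In the Polycomb complex around MGA, 4 of 13 genes rose (30.8%, beside 17.4% of all genes) and 1 fell (7.69%, beside 17.2%), with a median of 0.034. With offsets for exon length the counts were 3 and 0. HDAC1, which fell, and HDAC2, 1 of those that rose, are also counted among the co-repressors above. RYBP, a subunit named after its values were seen, went from 59.3 to 69.3 CPM (log2 fold change 0.23, adjusted p = 0.000159). The largest value belonged to RING1 (2.79, adjusted p = 0.00248), which is uncertain. RING1 is annotated on several copies of its chromosome 6 region, and it stood at 0.618, 0.733 and 0.395 CPM in control and at 1.09, 10.1 and 1.07 CPM in SMIP34 libraries. Without SMIP34 replicate 2 it was 0.89 with adjusted p = 0.0807.

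Genes that control MYC itself were grouped by level of control. Of 13 tested regulators of MYC transcription, 4 rose (30.8%, beside 17.4% of all genes) and 1 fell (7.69%, beside 17.2%). The share called in either direction was 38.5%, beside 34.6% of all genes, and the median was 0.033. With offsets for exon length the counts were the same. FUBP1, which binds the far upstream element of MYC, rose from 118 ± 3.12 to 142 ± 4.0 CPM (log2 fold change 0.27, adjusted p = 4.79e-07). NME2, a nucleoside diphosphate kinase that binds the MYC promoter, fell from 869 ± 35.3 to 737 ± 9.02 CPM (log2 fold change −0.24, adjusted p = 2.05e-07). Of 24 genes of MYC protein turnover, 8 rose (33.3%, beside 17.4% of all genes), none fell (beside 17.2%) and 16 were not called. In either direction 33.3% were called, beside 34.6% of all genes, and the median was 0.056. With offsets for exon length 6 rose and 1 fell. FBXO32, a ubiquitin ligase subunit of atrophying muscle, rose 1.43-fold from 3.75 to 5.37 CPM (adjusted p = 0.00665). FBXW7, the ligase subunit that reads phosphorylated MYC and was named after its values were seen, had a log2 fold change of 0.17 (adjusted p = 0.0847). MYC protein was not measured in these libraries.

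**Figure D4:**
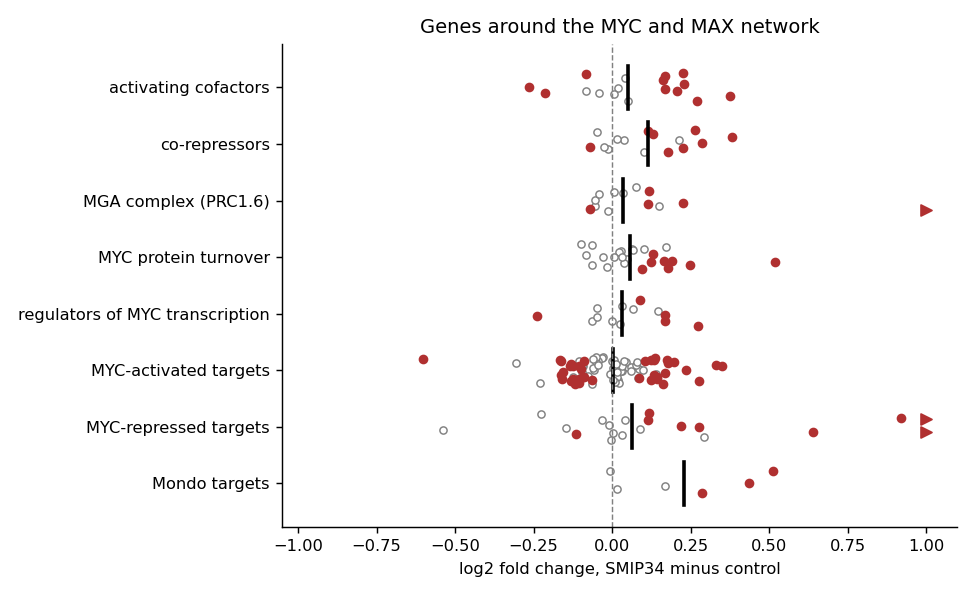
Each point is a tested gene of the named list, placed by its log2 fold change (SMIP34 minus control), filled red where called; black bars are list medians, vertical scatter carries no value, and triangles mark genes past the right edge (RING1, GADD45B and GADD45G). MYC-activated targets sat on both sides of 0 with a median of 0.0044, and the widest called increases belonged to MYC-repressed targets and to RING1.

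Targets that MYC is known to activate moved in both directions. Of 82 tested, 18 rose, 20 fell and 44 were not called, with a median log2 fold change of 0.0044. All genes split into 17.4% higher and 17.2% lower, against 22% and 24.4% of these targets. With offsets for exon length the split was 20 higher and 10 lower, so the balance of directions depended on that setting. Only SLC7A5, 1 of the 82, was called with an absolute log2 fold change over 0.5.

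SLC7A5, the LAT1 transporter of large neutral amino acids, was 197, 204 and 209 CPM in control and 134, 133 and 135 CPM in SMIP34 libraries. The groups stood well apart (log2 fold change −0.60, SE 0.032, adjusted p = 3.39e-14). SRM, spermidine synthase, fell by 0.17 (adjusted p = 0.00277), the mitochondrial peroxidase PRDX3 by 0.16 (adjusted p = 0.000333) and RABEPK by 0.16 (adjusted p = 0.00642). The calls of SRM and RABEPK were lost with offsets for exon length (adjusted p = 0.0826 and 0.0914). Against these, HK2, the hexokinase that opens glycolysis, was 60.1, 56.2 and 62.2 CPM in control and 75.0, 79.0 and 73.2 CPM in SMIP34 libraries. HK2 rose by 0.35 (SE 0.044, adjusted p = 6.27e-07). The cell cycle phosphatase CDC25A rose by 0.33 (adjusted p = 3.81e-06), and the ribosome assembly factors NOP2 and RRP12 by 0.28 (adjusted p = 7.76e-05) and 0.23 (adjusted p = 0.000903).

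Sorted by role, a grouping made after the values were seen, the calls were spread over all roles. Over all 13408 tested genes 17.4% rose and 17.2% fell, and with offsets for exon length 2239 rose and 1988 fell. Most groups are small, so the counts only describe them, and a difference between roles was not tested. Of 30 ribosome biogenesis genes 6 rose (20%) and 4 fell (13.3%), near the shares of all genes, which became 9 and 1 with offsets for exon length. Of 10 genes of nucleotide and polyamine synthesis or base repair 1 rose and 5 fell, or 1 and 2 with the offsets. Of 7 translation genes 4 rose and 0 fell, or 3 and 0. In the cell cycle and replication group 4 of 8 tested genes rose and 1 fell, or 3 and 0. Of 11 genes of mitochondria and chaperonins 2 rose and 3 fell, or 3 and 1. Of 9 genes of glycolysis, polyol metabolism and transport 1 rose and 3 fell, or 1 and 4. Of 7 other targets 0 rose and 4 fell, or 0 and 2. Well-known targets named after their values were seen included ODC1, the first enzyme of polyamine synthesis, at 259 ± 2.15 CPM in control and 260 ± 4.75 CPM in SMIP34 libraries (adjusted p = 0.916). CAD, which starts pyrimidine synthesis, was 112 ± 4.69 and 113 ± 0.901 CPM (adjusted p = 0.873). Nucleolin, NCL, was 757 ± 11.3 and 790 ± 27.8 CPM (adjusted p = 0.0829).

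The E-box was frequent in this list, which was chosen for known activation by MYC, so its share is a description and no test. Of the 70 activated targets with a promoter in the RefSeq table, 36 (51.4%) held CACGTG, against the 12.6% of tested genes given above. It was present in 11 of 19 that fell (57.9%), in 8 of 14 that rose (57.1%) and in 17 of 37 that were not called (45.9%). SLC7A5, SRM and PRDX3 among those that fell held the word, as did HK2 among those that rose. Over all tested genes with a promoter in the RefSeq table, 37.8% of those with the word were called and 35.9% of those without.

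Of 20 genes that MYC is known to repress, 8 rose (40%, beside 17.4% of all genes), 1 fell (5%, beside 17.2%) and 11 were not called (median 0.065). With offsets for exon length the counts were 9 and 1. The fold limit was passed by 4 of the 20, beside 3.31% of all genes. As the list was chosen with earlier results of these data known, these shares are no test of it. GADD45B, a stress-response gene of growth arrest, was 18.0, 18.3 and 18.3 CPM in control and 57.0, 57.2 and 55.7 CPM in SMIP34 libraries. It rose 3.11-fold, the largest called increase of the list (log2 fold change 1.64, SE 0.053, adjusted p = 1.57e-18). FTH1, the ferritin heavy chain, fell by 0.11 (adjusted p = 0.000848), a call lost with offsets for exon length (adjusted p = 0.11). Named after their values were seen, the cell cycle inhibitor CDKN1A went from 6.14 to 11.6 CPM (log2 fold change 0.92, adjusted p = 1e-07) and the stress gene NDRG1 from 231 to 360 CPM (log2 fold change 0.64, adjusted p = 9.3e-16). These genes answer to other regulators besides MYC, and the part of MYC or MXD1 in their change was not tested.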

How the data were processed

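RNA-seq was done on 3 control and 3 SMIP34 libraries, grouped by their labels. The authors deposited estimated counts per gene, made with featureCounts 1.5.0-p1 on hg19 with UCSC gene models, in which reads shared between genes or sites were split, so 6.311 to 7.435% of values were not whole. The submitters' processing notes name HISAT2 and the study's methods name another aligner and counter. The labels name library kits of different makers without assigning them to libraries. Control labels name only the medium, and the study's methods give vehicle.

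Counts were rounded, filtered with filterByExpr, scaled by the trimmed mean of M values (TMM, factors 0.9882 to 1.007) and tested with edgeR 4.0.16 (glmQLFit, glmQLFTest, R 4.3.3), and p-values were adjusted over 13408 genes. CPM are counts over TMM-scaled totals, and CPM per kilobase divides them by exon length. The functions that fit the counts were tested on simulated data, in some of the settings. Intervals at 95% came from the moderated fit. Alternatives were DESeq2 1.42.0, limma 3.58.1, other scalings and filters, a replicate block and each library left out. No pairing of same-numbered libraries was visible (correlations of deviations −0.028, 0.033 and −0.011), though 3 libraries per group cannot exclude it. Members and lists were chosen with earlier results of these data known. Named genes were all members, 3 partners, PELP1, and from each list the largest called increase and decrease at 1 CPM or more (4 each for MYC-activated targets).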

Additional observations from a re-analysis of the deposited data

How the results depend on the processing

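Across 17 fits MXD4 was called in 17, MXD1 in 16 and MGA in 4. The count of members called was 2 and ran from 1 to 3 with a library left out, being 1 without SMIP34 replicate 2 and 3 without control replicate 2. A fold limit of 0.5 on the log2 scale left 0 members, 444 of all 4645 genes called and 1 MYC-activated target. With a library left out, all genes called ran from 3707 to 4647, and DESeq2 called 3586. The direction of MYC reversed, at −0.013 with upper-quartile scaling, at −0.0032 with a filter of 5 CPM, and within −0.013 to 0.022 with a library left out. That of MNT reversed at −0.0087 with exon length offsets and within −0.024 to 0.10 with a library left out. Neither was called in any fit, and the cause was not tested. Leaving out MXD4, an alternative added after the data were seen, moved the activator to repressor difference from 0.041 to −0.019, and with a library left out it ran from 0.029 to 0.0523. With the replicate block 2 members, 4432 genes and 37 MYC-activated targets were called, and it changed no member's call. Genes under a few counts in each library, such as MYCN, could not be compared at this depth.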

Other observations

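Targets of the Mondo arm of the network, which answers to glucose, were in part near the floor in these cells. Of 11 listed genes 6 were tested. Of these 3 rose (50%, beside 17.4% of all genes) and none fell (beside 17.2%), with a median log2 fold change of 0.23. With offsets for exon length the counts were 3 and 1. KLF10, a repressor of the Krüppel-like family, rose from 53.5 ± 2.64 to 76.3 ± 3.57 CPM (log2 fold change 0.51, SE 0.045, adjusted p = 1.35e-09). Fatty acid synthase, FASN, named after its values were seen, was 211 CPM in control and 257 CPM in SMIP34 libraries (log2 fold change 0.29, adjusted p = 8.65e-07). ARRDC4, also named after its values were seen, was 3.26 and 4.43 CPM (log2 fold change 0.44, adjusted p = 0.0405), and its call was lost with offsets for exon length (adjusted p = 0.0551), with DESeq2 (adjusted p = 0.0992) and without control replicate 1 or 3 or SMIP34 replicate 1 or 2 (adjusted p = 0.0742 to 0.187). TXNIP, a widely expressed inhibitor of thioredoxin and a standard readout of MondoA, was named after its values were seen: it had 0 counts in 5 libraries and 1 count in SMIP34 replicate 3. MLX, MLXIP and MLXIPL were all measured in the same libraries, as given above. The pattern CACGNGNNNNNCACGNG, 2 E-box-like words in tandem, was found in the TXNIP promoter and in 0.057% of all promoters searched on both strands. It is shown in capitals at chr1:145996629-145996688 of GRCh38.p14 (minus strand).
TXNIP: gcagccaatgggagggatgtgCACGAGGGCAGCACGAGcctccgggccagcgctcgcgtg

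Most genes listed as germline targets of the MGA complex were near the floor. Of 20 listed genes 16 were too low to test, and of the 4 tested only SMC1A was called (log2 fold change 0.11, adjusted p = 0.00177). That call was lost with exon length offsets. SMC1A is a cohesin subunit used in all dividing cells and was far from silent, at 336 CPM in control libraries. TDRKH, at 34.1 CPM in control libraries, was not near the floor either. PVT1, the noncoding gene next to MYC, was named after its values were seen and stood at 10.3 ± 1.1 CPM in control and 11.4 ± 0.541 CPM in SMIP34 libraries (log2 fold change 0.15, adjusted p = 0.248).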
